A study of Oryza sativa with 8 samples.

Results

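A set of 133 probes, of 40832 on a rice gene array, was lowest on both arrays labelled XQZ-A. A probe was taken when, within each of the 2 replicate numbers, its intensity on the XQZ-A array lay at least 1.5-fold below that of each of the 3 other lines, with intensities below 16 set to 16. Probes at least 1 log2 unit below the maintainer on all 6 arrays of the male-sterile lines had been removed, which took away 19, and probes in OsC4, IAA17, IAA9, 4CL5, APX1 and DL were set aside, which took away 2 (in APX1 and IAA17). The members were therefore chosen by measured values, and the size of their difference on the XQZ-A arrays is given as a description with no test.

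The arrays measured RNA of 4 rice lines, with 2 arrays per line. D62A (D type cytoplasm), ZhenShan97A (WA type) and XQZ-A (DA type) are cytoplasmic male-sterile (CMS) lines whose cytoplasms had been brought into the nuclear background of Meixiang B by repeated backcrossing, and Meixiang B (MB) is the fertile maintainer. All plants were field-grown, with no treatment other than the line. The tissue was young panicle at the uninucleate microspore stage according to the labels and anther according to the study's methods. Nuclear replacement by backcrossing can leave donor segments, and by the study's DNA markers it was incomplete in each CMS line, to differing degrees. The cytoplasm and the remaining donor nuclear genes of a line therefore cannot be told apart here. The labels pair each array with a line, but in a list of changed genes printed with the study, 588 of 620 rows matched the deposited arrays (within 0.005 log2) when the columns for XQZ-A and D62A were exchanged, and 2 matched as labelled. The names used here are those of the labels, so that XQZ-A stands for the arrays labelled XQZ-A. Whether these arrays carry the DA or the D type cytoplasm is therefore not settled. The study reports WRKY25, a member here, as lowered in its D type line.

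In CMS, a mitochondrial genome from another rice carries a factor that blocks pollen formation. The nuclear genes of the anther come largely, after repeated backcrossing, from the maintainer. The tapetum, the innermost cell layer of the anther wall, feeds the microspores and supplies lipids and phenylpropanoids for the pollen wall. Phenylpropanoids start from phenylalanine, which is made from chorismate by the shikimate pathway and is then committed by phenylalanine ammonia-lyase.

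Of the 133 members, 83 lay in exactly 1 RefSeq gene (81 genes, 12 of them with a name other than a LOC number), 1 lay in several genes and 49 had no listed gene. An annotation from the study's list could be tied to 51 members, 13 of which had no listed gene, and 37 members had neither. The share in 1 gene was 62.4%, against 60% of the 9971 probes that were bright enough on the other 6 arrays to be able to pass. The members were 0.326% of all probes and 1.33% of those 9971. Their mean intensity over the 8 arrays ran from 29.2 to 823 with a median of 97.2, and the median of the 9971 probes was 98.4. There were 131 distinct patterns of values, since 2 pairs of probes held identical values.

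Averaged over both replicate numbers, XQZ-A lay between 0.76 and 2.47 log2 units below the mean of the 3 other lines, with a median of −1.27 (−1.24 in replicate 1 and −1.28 in replicate 2). Over all probes of the fit described below the median was 0. At least a 2-fold distance was held by 107 members and at least a 4-fold distance by 7. On 5 members both XQZ-A arrays were under 16, on 15 members 1 of them was, and 0 of the arrays of other lines were. For such members the fold is held down by the floor. The members at the edge of the rule were LOC4345284, whose smallest log2 gap to another line was 0.587, LOC4330006 (annotated as a cupin superfamily enzyme) with 0.591 and LOC4324939 (an alpha/beta fold hydrolase) with 0.593. Just outside lay LOC4349997 with 0.583, LOC4334311 with 0.582 and LOC4327301, a phosphofructokinase, with 0.578. Between 0.5 and the threshold lay 66 probes, and 44 members lay between the threshold and 0.67.

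Roles in aromatic amino acid and phenylpropanoid synthesis were held by 4 members, grouped after their values were seen and not from a list of the pathway. 4CL5 was among the genes set aside, but the probes this took away lay in APX1 and IAA17. Chorismate mutase, which turns chorismate towards phenylalanine and tyrosine, had intensities of 151 and 257 in MB (replicates 1 and 2), 79.4 and 182 in D62A, 211 and 370 in ZhenShan97A and 27.7 and 60.4 in XQZ-A. ZhenShan97A was thus the highest line in both replicate numbers, and XQZ-A lay 4.59-fold below the mean of the other lines. ASB1, named for the beta subunit of anthranilate synthase, which takes chorismate towards tryptophan, was at 97.3 and 154 in MB, 76.7 and 123 in D62A, 103 and 157 in ZhenShan97A and 49 and 57.7 in XQZ-A, a 2.16-fold lower level. PAL06, a phenylalanine ammonia-lyase gene, had 56.2 and 90.1 in MB, 46.4 and 91.6 in D62A, 68.5 and 112 in ZhenShan97A and 23.4 and 27.5 in XQZ-A. Both XQZ-A values of PAL06 were under all 6 others, and the distance was 2.92-fold. CAD (CAD2, also GH2), a cinnamyl alcohol dehydrogenase of the last step to lignin monomers, had the smallest distance of the group, 1.83-fold, with 39.3 and 48.1 in XQZ-A against 59.7 to 111 on the other arrays. A further probe in the same gene was brighter (184 and 243 in XQZ-A) and was not chosen: there XQZ-A lay 0.14 and 0.68 log2 units below the mean of the other lines.

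None of these 4 genes passed a test between the 3 remaining lines, and for PAL06 the differences from MB were −0.13 in D62A (adjusted p = 0.788 in a limma fit with the replicate number as a block) and 0.30 in ZhenShan97A (adjusted p = 0.345). For chorismate mutase they were −0.72 (adjusted p = 0.0597) and 0.50 (adjusted p = 0.0842).

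Members named or annotated as transcription factors included genes of 5 families. The families of the 76 members with neither a gene name nor an annotation are not known here. MADS22, a MADS-box factor of the SVP group that acts on floral meristem identity in rice, had 151 and 252 in MB, 48.4 and 71.8 in D62A, 57.6 and 128 in ZhenShan97A and 28.9 and 35.6 in XQZ-A. MB stood above every other array of its replicate number, so that this gene was lower in all 3 CMS lines: the limma difference from MB was −1.73 (SE 0.21, adjusted p = 0.0139) in D62A and −1.19 (adjusted p = 0.0177) in ZhenShan97A, neither of which reached the threshold of 0.01. WRKY25, a WRKY factor by its annotation, was dim, with 39.5 and 46.6 in MB, 29.1 and 54.4 in D62A, 54.9 and 76.5 in ZhenShan97A and 18.2 and 19.4 in XQZ-A. The gene with the symbol bHLH (LOC4343984, a helix-loop-helix factor) had 84.1 and 169 in MB, 80.1 and 115 in D62A, 138 and 264 in ZhenShan97A and 41.1 and 64.3 in XQZ-A. In both of these ZhenShan97A was the highest line, as it was for chorismate mutase. LOC4331910, annotated as an ethylene-responsive factor, was 2.88-fold below the mean of the other lines (72.5 and 108 in XQZ-A, 153 to 373 elsewhere). LOC4345900, a Dof zinc finger factor, was 2.86-fold below it (74.6 and 65.3 in XQZ-A, 123 to 445 elsewhere), with distances of 1.00 in replicate 1 and 2.03 in replicate 2.

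By symbol, MADS22 was the only member among 24 measured MADS-box genes, 11 of which were bright enough to pass, and bHLH the only one among 15 measured bHLH genes, 6 of which could pass. Of 6 genes with a WRKY symbol, 5 could pass and 0 were members, since WRKY25 is known here by its annotation alone. In the lists of NAC (10 measured genes, 6 of which could pass), MYB (7 and 4), bZIP (14 and 7) and homeobox factors (29 and 14), 0 genes were members. Members were 1.33% of the probes that could pass, and at that share lists this short hold few members or none. These counts use RefSeq symbols and leave out factors that carry only a LOC number.

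Hormone and signalling genes were spread over several pathways. ACS1, named for 1-aminocyclopropane-1-carboxylate synthase, the enzyme that makes the precursor of ethylene, had 175 and 155 in MB, 73.8 and 164 in D62A, 115 and 141 in ZhenShan97A and 44.8 and 63.6 in XQZ-A. LOC9267097, annotated as OsSAUR21 of the auxin-responsive SAUR family, had 71.9 and 76.2 in MB, 31 and 24.9 in D62A, 31.4 and 46.7 in ZhenShan97A and 15.6 and 9.65 in XQZ-A, where both arrays were under the floor. For ACS1 the MB and D62A values overlapped, while SAUR21 was highest in MB in both replicate numbers. LOC4330795 was 1.84-fold below the mean of the other lines, with 52.1 and 78.7 in XQZ-A and 84.3 to 160 elsewhere. It is annotated as a putative coronatine-insensitive protein 1, and its function was not tested here. LOC4343000, annotated as an SKP1-like protein (a part of SCF ubiquitin ligases), was 3-fold below it, with 12.9 and 27.3 in XQZ-A and 39.1 to 114 elsewhere. MAPK6 (LOC4339633, also MPK7), a mitogen-activated protein kinase and the brightest of the named signalling genes, had 361 and 557 in XQZ-A and 571 to 1054 elsewhere, a 1.75-fold distance. The higher XQZ-A value was close to the lowest value of the other lines. ERG3, a C2-domain protein gene (RPP16), had 576 and 810 in MB, 361 and 395 in D62A, 337 and 477 in ZhenShan97A and 214 and 220 in XQZ-A. This made MB the highest line for ERG3 as well.

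Genes of primary carbon metabolism included the member with the most unusual order of lines. PDC (PDC1, LOC4339066), a pyruvate decarboxylase gene of the fermentation pathway from pyruvate to ethanol, had 37.7 and 27.7 in MB, 97.5 and 174 in D62A, 116 and 39.7 in ZhenShan97A and 12.3 and 17.7 in XQZ-A. It was the only member at least 1.5-fold above MB on both D62A arrays, by a limma difference of 2.01 (adjusted p = 0.0728), and in ZhenShan97A it was 1.07 above MB with replicates that differed widely (adjusted p = 0.203). IPP, a soluble inorganic pyrophosphatase gene, was steady outside XQZ-A, with 265 and 438 in MB, 233 and 328 in D62A, 288 and 544 in ZhenShan97A and 97.5 and 123 in XQZ-A, a 3.05-fold distance. OsTPP1, a trehalose-6-phosphate phosphatase gene, had 90.3 and 140 in MB, 94.9 and 79.4 in D62A, 84.3 and 130 in ZhenShan97A and 31.7 and 43.8 in XQZ-A. LOC4352803, annotated as a transketolase, was 2.21-fold below the mean of the other lines (47.9 and 62.4 in XQZ-A), and OsPPT3 was 2.17-fold below it (40.3 and 39.2 in XQZ-A), with its highest values, 157 and 94.9, in ZhenShan97A.

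Some members had an annotated role in lipids, cell wall or transport. LOC4332090, annotated as a 3-ketoacyl-CoA synthase of very-long-chain fatty acid elongation, had 373 and 629 in MB, 318 and 392 in D62A, 278 and 458 in ZhenShan97A and 132 and 170 in XQZ-A. LOC4332233, annotated as POEI16, a member of the pollen Ole e I allergen and extensin family, had 118 and 340 in MB, 71 and 140 in D62A, 57.8 and 353 in ZhenShan97A and 26.1 and 50 in XQZ-A. The ketoacyl-CoA synthase kept its order in both replicate numbers for MB and XQZ-A, while for POEI16 ZhenShan97A was below D62A in replicate 1 and the highest line in replicate 2. The probe annotated as OsMan01, an endo-beta-mannanase that cuts wall mannans, had 78.3 and 165 in MB, 31.6 and 84.3 in D62A, 28.4 and 69.8 in ZhenShan97A and 15.1 and 43.7 in XQZ-A, so that MB was highest by a wide margin in each replicate number. The probe annotated as OsHKT1;1, a sodium transporter, had 235 and 120 in MB, 50.3 and 63.7 in D62A, 128 and 92.6 in ZhenShan97A and 28.8 and 28 in XQZ-A. LTPL65 (LOC9270480), of the lipid transfer protein family, was 2.14-fold and LOC4326005, with a heavy-metal-associated domain, 1.85-fold below the mean of the other lines.

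Among the annotated probes of the study's list, 585 were tied to a single probe, and members were 1 of 5 lipid transfer proteins, 1 of 2 ketoacyl-CoA synthases, 1 of 13 glycosyl hydrolases (LOC4325066), 1 of 3 WRKY factors and 1 of 11 transposon or retrotransposon probes. Pectin enzymes (8 probes), GDSL lipases (10), cytochrome P450 (12), peroxidases (7) and receptor kinases (8) held 0 members. Of all 585 annotated probes 51 were members, and at that share lists this short hold few members or none. The list was made from these same arrays, so these counts only describe which of its families the members touch. Of the 51 annotated members, 8 had the annotation "expressed protein" alone, as had 83 of the 585 annotated probes.

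The members with the largest distances were a mixture of annotated and unannotated probes. The probe with the largest, 5.54-fold below the mean of the other lines, had no listed gene, with 822 and 323 in MB, 85.4 and 236 in D62A, 136 and 52.3 in ZhenShan97A and 32.6 and 33.5 in XQZ-A. The values of D62A and ZhenShan97A for this probe changed places between the replicate numbers. LOC4347198 was 4.76-fold below, with 350 and 420 in MB, 111 and 184 in D62A, 187 and 288 in ZhenShan97A and 46.4 and 51.9 in XQZ-A. LOC4334442 (4.53-fold), LOC4324856 (3.94-fold) and LOC4345414 (3.26-fold) carried no informative annotation either. The annotated members of similar size were chorismate mutase (4.59-fold), POEI16 (3.92-fold) and PDC (3.91-fold), a ubiquitin fusion degradation protein (4.58-fold), a haemolysin-III protein (4.21-fold), the ubiquitin family protein LOC4324978 (3.89-fold), a strictosidine synthase (3.89-fold), LOC4352000, an integral membrane protein with a DUF6 domain (3.71-fold), and LOC4337238, annotated as nuclease PA3 (3.69-fold). LOC4337238 was also the brightest of these, with 147 and 257 in XQZ-A and 394 to 1786 elsewhere.

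The members differed in how MB, D62A and ZhenShan97A stood to each other, an order the rule touched in requiring each to lie above XQZ-A and in removing the probes at least 2-fold below MB on all CMS arrays. MB was the highest line in both replicate numbers for 60 members (45.1%), against 16% of the 9971 probes that could pass. ZhenShan97A was highest for 31 (23.3%, against 30.8%) and D62A for 3 (2.26%, against 10.9%), and 39 members had no line that was highest in both. D62A was the lowest of these 3 lines in both replicate numbers for 53 members (39.8%, against 12.1%). Of the 133 members, 43 were also at least 1.5-fold below MB on both arrays of D62A (38), of ZhenShan97A (25) or of both lines (20), and 15 were at least 2-fold below it in 1 of the lines. Of the 9913 probes that could pass and were not removed as low on all CMS arrays, 4.92% lay 1.5-fold below MB in at least 1 of the lines (members 32.3%), 2.77% in D62A (28.6%), 3.56% in ZhenShan97A (18.8%) and 1.41% in both (15%), and 1.09% lay 2-fold below it (11.3%). The other 90 were not, and 35 members lay within 1.5-fold of MB on all 4 arrays of D62A and ZhenShan97A (26.3%, against 49.4%). A label that calls the members lowered only in XQZ-A therefore holds for part of them.

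The 35 members that stayed within 1.5-fold of MB in the other CMS lines form a grouping made after the values were seen. Those with a name or annotation were PAL06, ASB1, CAD, IPP, MAPK6, LOC4346518 and a probe annotated as an NAD-dependent epimerase or dehydratase. The epimerase probe had 71.1 and 64.7 in MB, 60.3 and 55.1 in D62A, 53.8 and 69.1 in ZhenShan97A and 33 and 31.7 in XQZ-A. LOC4346518 had 135 and 275 in MB, 117 and 226 in D62A, 147 and 307 in ZhenShan97A and 59.8 and 114 in XQZ-A, so its replicates ran in parallel at different levels.

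The 20 members at least 1.5-fold below MB on all arrays of both other CMS lines held a different set of names. They included MADS22, OsSAUR21, ERG3, the endo-beta-mannanase, the retrotransposon probe, the ubiquitin fusion degradation probe, LOC4352000, LOC4352813 and LOC4333949. LOC4327631, annotated as a methyladenine glycosylase (an enzyme of DNA base repair), had 160 and 149 in MB, 45.4 and 66.3 in D62A, 43.9 and 75.7 in ZhenShan97A and 22.9 and 36.2 in XQZ-A. A probe annotated as a decarboxylase had 68.1 and 149 in MB, 26.7 and 43.9 in D62A, 38.4 and 54.2 in ZhenShan97A and 14.2 and 21.8 in XQZ-A. LOC4330390, annotated as a multidrug resistance protein, had 136 and 296 in MB, 76.3 and 114 in D62A, 74.3 and 111 in ZhenShan97A and 47.2 and 73.7 in XQZ-A. In each of these the other CMS lines were close to each other. That MB was the highest line and XQZ-A the lowest was fixed by the choice of the members and of this group. On 7 members ZhenShan97A was instead at least 1.5-fold above MB on both arrays (5.26%, against 7.56% of the 9913 probes), among them bHLH, LOC4333957 and LOC4345284.

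D62A and ZhenShan97A were compared with MB and with each other by limma over 20416 probes with the replicate number as a block, where a call needs an adjusted p under 0.01 and a 2-fold difference. Both comparisons with MB use the same 2 MB arrays. The rule used the arrays of all lines, so the values in every comparison, also that of ZhenShan97A with D62A, entered the choice of the members. The members are therefore not a random draw, and their shares beside those of all probes are descriptions. In D62A, 0 members were called lower, with 0.0294% of all probes called, and 0 were called higher, with 0% called. At an unadjusted p under 0.05, 62 members (46.6%) were lower, against 9.28% of all probes, and 4 were higher, against 11.4% of all probes. The median difference of the members was −0.44, and that of all probes 0. The member nearest to a call was LOC4333949, with 174 and 282 in MB and 45.5 and 81.2 in D62A, which gave a difference of −1.87 (SE 0.17, adjusted p = 0.0107).

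In ZhenShan97A, 3 members (2.26%) were called lower, against 0.779% of all probes, and 0 were called higher, against 0.852%. The 3 were the endo-beta-mannanase probe, which fell by 1.35 (SE 0.14, adjusted p = 0.00553), a probe annotated as a retrotransposon protein, which fell by 1.83 (SE 0.22, adjusted p = 0.00753), and LOC4331389, which fell by 1.05 (SE 0.13, adjusted p = 0.00775). The retrotransposon probe had 97.1 and 354 in MB, 50.4 and 94.7 in D62A, 31.7 and 85.9 in ZhenShan97A and 15.9 and 47.1 in XQZ-A. LOC4331389 had 157 and 227 in MB, 90.4 and 141 in D62A, 71.7 and 116 in ZhenShan97A and 47.3 and 66.5 in XQZ-A. In all 3, both ZhenShan97A arrays lay under the MB array of the same number, and 0 members were called when the replicate block was left out (0 probes in all) or when all probes entered the fit (1 probe in all). Without MB replicate 2, without either ZhenShan97A array or without either XQZ-A array, 0 members were called as well, and without either D62A array 5 were. At an unadjusted p under 0.05, 44 members (33.1%) were lower, against 9.89%, and 17 (12.8%) were higher, against 18.6%, with a median of −0.22 beside −0.01 over all probes. The higher ones included LOC4345284, at 31 and 47.2 in MB and 46.7 and 109 in ZhenShan97A, by 0.90 (adjusted p = 0.0325) and, for a second member probe of the same gene, by 0.97 (adjusted p = 0.0302).

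Between ZhenShan97A and D62A, 0 members were called in either direction, with 0% of all probes called higher and 0% lower. At an unadjusted p under 0.05, 33 members (24.8%) were higher in ZhenShan97A, against 9.73% of all probes, and 2 (1.5%) were lower, against 3.76%. The median was 0.26 above D62A. Chorismate mutase had the lowest adjusted p of the members (difference 1.22, SE 0.16, adjusted p = 0.0703), followed by bHLH (0.99, adjusted p = 0.0845) and LOC4343000 (0.76, adjusted p = 0.0867). Probes held at the floor have little room to differ, and among the 9971 probes that could pass the shares at an unadjusted p under 0.05 were 11.3% lower in D62A and in ZhenShan97A against MB, 17.7% and 28.2% higher, and 14.1% higher in ZhenShan97A against D62A.

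Other cell types and the tissue were read from marker genes. The summed intensity of 8 measured tapetum and pollen wall markers (1 of them under 16 on every array) was 775 and 2591 in MB, 314 and 547 in D62A, 475 and 728 in ZhenShan97A and 378 and 502 in XQZ-A. It was thus lower in all CMS lines than in MB, with XQZ-A near D62A. The sum of 3 floral organ genes (AP3, DL and MADS21) was 428 and 907 in MB, 233 and 361 in D62A, 280 and 479 in ZhenShan97A and 223 and 360 in XQZ-A. XQZ-A was the lowest line in both replicate numbers by a small margin. This sum does not read carpel content, since AP3 is not specific to the carpel. The sums of 4 green tissue markers ran from 85.6 to 108 in replicate 1 and from 268 to 354 in replicate 2, and those of 7 meiosis markers from 103 to 127 and from 230 to 311. Few of these genes could have been members. Bright enough on the other lines were 2 tapetum, 2 green tissue, 1 meiosis and 2 floral organ genes. DL, which is in the sum, was among the genes set aside. Of all these genes 0 were members, so this count says little. Fewer cells of a type and less RNA per cell cannot be told apart in such samples, and the part of tissue makeup in the members' levels was not tested. The arrays of replicate 2 were brighter, with medians of 19.2 to 20.6 against 7.65 to 8.15 in replicate 1, which is why lines were compared within a replicate number.

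The genes with a member were placed on all 12 chromosomes. Chromosome 1 held 15 of the 81, and chromosomes 6, 10 and 11 held 2, 1 and 2. As a share of the genes on a chromosome that could pass, they made up from 0.4% on chromosome 10 to 2.32% on chromosome 12, with 2.13% on chromosome 4 and 0.439% on chromosome 6. Chromosome 4 held 13.6% of the genes with a member and 8.88% of those that could pass, and chromosome 6 held 2.47% and 7.83%. Pairs of members within 200 kb occurred 4 times, and 73 genes had no such neighbour. How many such pairs the spacing of the genes that could pass would give was not tested, so the pairs are a description. On chromosome 2, MADS22 lay 9 protein-coding genes from LOC4330795, annotated as a putative coronatine-insensitive protein 1. On chromosome 12 the transketolase LOC4352803 lay 12 from LOC4352813, a protein with a calmodulin-binding IQ motif. On chromosome 3, LOC4331389 lay 8 from LOC4331397, annotated as a retinol dehydrogenase, and LOC4333949 lay 6 from LOC4333957. The members of a pair did not always share their order of lines: LOC4333949 was highest in MB, whereas LOC4333957 had 71.6 and 132 in MB, 110 and 182 in D62A, 127 and 219 in ZhenShan97A and 40.3 and 63.4 in XQZ-A.

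Further probes in the genes of members were read by the rule and not chosen. Probes of the same genes that passed count as members, so the distances of these further probes are limited by the choice. Of 7 such probes in 6 genes, 5 were bright enough to pass, 4 of these were lower in XQZ-A than the mean of the other lines in both replicate numbers, and the median distance was −0.41. The widest was in LOC4351352, where the second probe had 166 and 95.4 in MB, 56.1 and 74 in D62A, 69.5 and 69.1 in ZhenShan97A and 42 and 42.2 in XQZ-A. The exception was LOC9270767: its member probe had 72 and 85.4 in XQZ-A and 114 to 323 elsewhere, while a second probe had 446 and 641 in XQZ-A and 144 to 497 elsewhere, which was 1.01 and 1.33 above the mean of the other lines. Values of LOC9270767 are therefore uncertain for the gene as a whole. In LOC9269768, 2 member probes held identical values and count as a single measurement.

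The same rule, read for the other lines and for higher values with no gene or probe removed, gave 154 probes lower and 58 higher in XQZ-A. It gave 11 lower and 1 higher in D62A, 9 lower and 168 higher in ZhenShan97A, and 121 lower and 370 higher in MB. After quantile normalization of the arrays, the counts lower and higher were 119 and 73 for XQZ-A, 6 and 2 for D62A, 13 and 99 for ZhenShan97A and 115 and 391 for MB.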

How the data were processed

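RNA of 4 rice lines was measured on 8 arrays. The deposited intensities are on a linear scale. Per the labels the authors used MAS5 (version not given in the sources used here), while their methods name a robust multichip analysis and a log transformation. A second deposited table with 98 control probe sets more held the same values (largest difference 0) and was not used. The number of arrays limits the precision. What separates the 2 arrays of a line (plants, plots or extracts) was not given in the labels, and p-values measure the spread between arrays.

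A floor of 16 was applied to the intensities, which were then put on the log2 scale. Limma 3.58.1 in R 4.3.3 was fitted to all 8 arrays with the replicate number as a term, over the 20416 probes with a mean intensity at or above the median (lowest 14.89), with Benjamini-Hochberg adjustment (residual degrees of freedom 3, prior 3.96). The replicate numbers come from the sample titles, and in each of the 6 pairs of lines the deviations of same-numbered arrays correlated (r from 0.728 to 0.839). Tables were made with Python 3.11.15 and pandas 2.3.3.

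Probes were placed in genes by the array's coordinates and the RefSeq annotation: 15295 lay in 1 gene, 436 in several and 25101 in none listed. The study's annotation was tied to probes by a match of its printed values to the arrays, with no value used further. Of 401 matched probes in 1 gene, 400 were on the annotated chromosome, and the other was dropped. The printed fold changes and p-values of the study were not used as results.

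The members and gene lists were chosen with earlier results of these data known. Genes named were members with a symbol, the 15 largest differences in 1 gene, up to 15 annotated members, those called in the other comparisons, those in pairs on a chromosome and those next to the threshold. Chorismate mutase, WRKY25, OsHKT1;1, OsMan01, LTPL65 and the other annotated probes were named after their values were seen. Lists defined by words could be read only in the study's annotation. Alternatives were other floors, normalizations, thresholds, fits and leaving out arrays.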

Additional observations from a re-analysis of the deposited data

How the results depend on the processing

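With 2 arrays per line, the choice of members and the calls both rest on few values. The number of members was 133, and 86 under a floor of 32, 22 when a distance of at least 1 was asked for, and 294 to 410 when a single replicate number was used. It was 162 with a floor of 8, 153 with no floor and 1 added, 116 with arrays centred on the median (108 shared), 95 after quantile normalization (81 shared) and 151 with the probes low on all CMS arrays kept. In D62A against MB, 0 members were called by limma (62 lower and 4 higher at an unadjusted p under 0.05), with 6 probes called in all. The count was 29 of 728 probes called at an adjusted p under 0.05 with no fold threshold, 4 of 139 with no floor and 1 added, and 0 to 2 (of 0 to 148) when arrays were left out. In ZhenShan97A against MB, 3 members of 333 probes were called, 40 of 2562 at an adjusted p under 0.05 with no fold threshold, 0 of 0 with no replicate block, 0 of 1 with all probes in the paired fit, 1 of 71 after quantile normalization and 0 to 5 (of 0 to 345) when arrays were left out. In ZhenShan97A against D62A, 0 members were called under each of these settings (33 higher and 2 lower at an unadjusted p under 0.05). Over all probes, 0 were called in the main fit and 7 at an adjusted p under 0.05 with no fold threshold. Without D62A replicate 1, which leaves a single D62A array, probes outside the members were called. Of 420 values of 60 differences of named members under alternatives, 371 moved by less than the spread between replicates and 49 moved by more. Their sign was fixed by the choice of the members. The causes were not tested. Low intensities limit the members with XQZ-A values under 16.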
